A study of Phyllostachys edulis with 2 samples.

Results

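The putative genes of sucrose synthesis, cleavage and transport were examined in rhizome lateral buds of Moso bamboo (Phyllostachys edulis). A transcript was included when its protein description named sucrose, invertase, fructofuranosidase or UDP-glucose pyrophosphorylase, and descriptions with a kinase or with fermentation were left out. This gave 45 transcripts of 18 loci, out of 148492 transcripts of 85391 loci. The buds were wild type, grew underground on different rhizomes and were sorted by length into early shoot stage and germination stage. Buds of a stage were pooled into 1 library. With no second library of either stage, a difference between stages cannot be set against the spread between samples, and p-values are not given. In a pooled bud, fewer cells of a type and less RNA per cell cannot be told apart. The library totals were 7878826 reads in early shoot stage and 4481221 reads in germination stage, and the 45 transcripts held 14567 reads (0.185%) and 6365 reads (0.142%) of them.

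Sucrose carries carbon from leaves to growing tissues. Sucrose-phosphate synthase (SPS) joins UDP-glucose with fructose 6-phosphate, and a phosphatase then frees the sucrose. Proton-coupled sucrose transporters load sucrose into cells and into the phloem. In the receiving tissue, sucrose synthase splits sucrose with UDP into UDP-glucose and fructose, a reversible step that keeps the energy of the bond. Invertases split it irreversibly into glucose and fructose, in the cell wall, in the vacuole, or, for the neutral/alkaline type, mainly in the cytosol and in organelles. UDP-glucose pyrophosphorylase (UGPase) interconverts UDP-glucose and glucose 1-phosphate. Underground buds have no photosynthesis of their own and depend on sugar brought in from above-ground tissues and the rhizome.

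Ratios are log2 values of early shoot over germination, scaled by the median ratio of the counts, 1.8. The 95% interval beside a ratio comes from the exact Clopper-Pearson interval for the share of reads from early shoot. It covers counting error only, since each stage has 1 library. Even for counting error it may be too narrow, since PCR reads without molecular identifiers are not independent molecules. How reads were divided among the transcripts of a locus is not known, and the interval of a sum is too narrow if a read was counted on several of them. A cautious estimate, the G-fold value, takes from the posterior of each log2 ratio the bound closest to 0 (quantile 0.01 in each tail), and is 0 if the bounds differ in sign. A locus or transcript was called when its G-fold value was beyond 1.0 in either direction, and a called transcript also had RPKM above 1.0 in both libraries.

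The reads of the sucrose genes were weighted toward early shoot, most of all those of the invertases when summed as a class. Summed over the 18 loci, the reads gave a log2 ratio of 0.35 (interval from 0.30 to 0.39). All invertases had 1496 reads in early shoot and 378 in germination, a log2 ratio of 1.14 (from 0.97 to 1.30), or 2.20-fold. The neutral/alkaline invertase locus held 915 and 176 of these reads, and without it the log2 ratio was 0.68. Cell wall invertase had 0.26 (from -0.14 to 0.67). SPS was 1.44-fold higher in early shoot and UGPase 1.20-fold. The loci of sucrose synthase went in opposite directions.
By its matched transcripts a single locus was called, that of neutral/alkaline invertase, on the side of early shoot. Of all loci with reads, with all transcripts of each locus summed, 1.33% were called on that side. When the sucrose loci were summed in the same way, 2 were called in early shoot and 0 in germination. No locus was called on the side of germination, where 4.92% of all loci were. Of the 45 transcripts, 43 had RPKM above 1.0 in both libraries, and 3 of these were called in early shoot (1.4% of all transcripts above the cutoff) and 0 in germination (3.77%). All 3 belong to the neutral/alkaline invertase locus, so they stand for 1 call.
At least 100 reads in both libraries together were found on 12 of the 18 loci. Among these 12, 1 was called in early shoot and 0 in germination, where 5.9% and 10.3% of all loci with as many reads were. G-fold values were above 0 in 8 of them and below 0 in 1, against 35.6% and 30.4% of all such loci. The values for all loci again sum all transcripts of each locus. Summed so, 12 sucrose loci again had at least 100 reads, and 2 were called in early shoot and 0 in germination. These 12 also had 8 G-fold values above 0 and 1 below 0. The median log2 ratio with 1 read added was 0.60 for the 12 loci by matched transcripts. It was 0.08 for all 13025 loci with as many reads, by all transcripts of each locus.

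**Figure D1:**
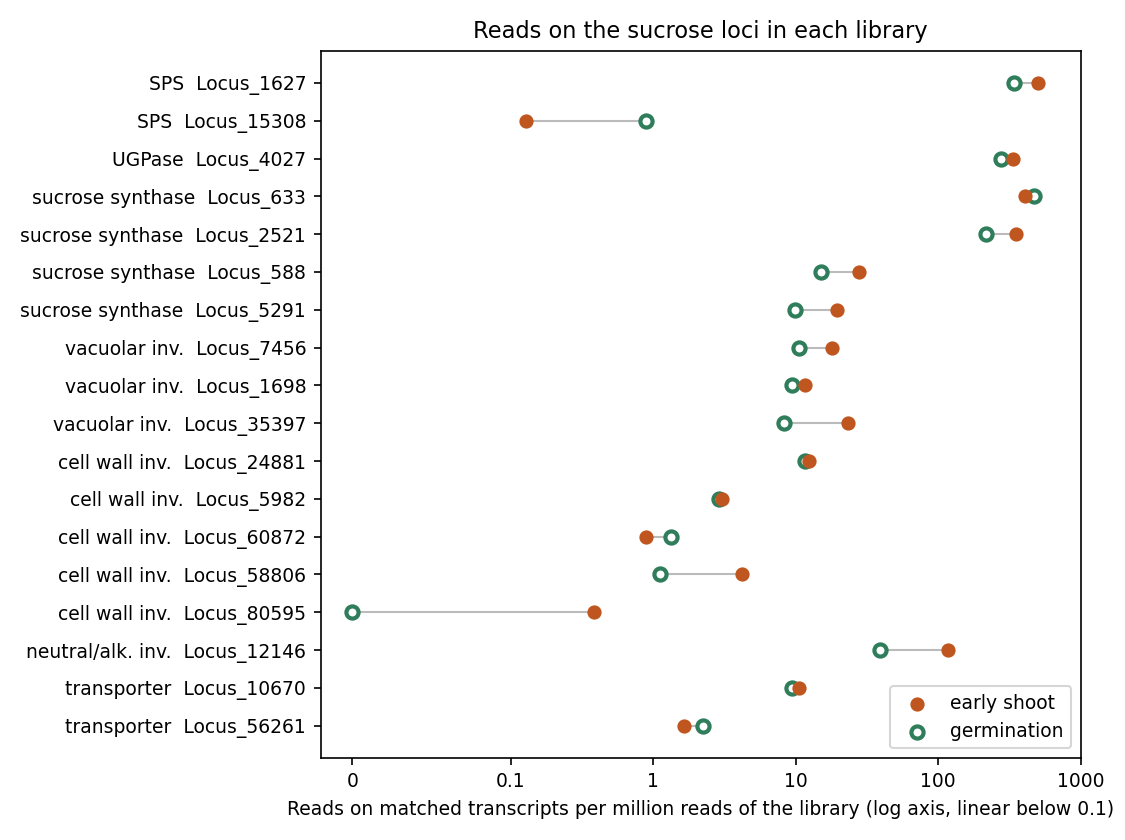
Reads on the matched transcripts of each of the 18 loci, as RPM (counts over the library total), in early shoot (filled) and germination (open), on a log axis that is linear below 0.1. By RPM, which does not correct for transcript length, the highest locus in early shoot is the SPS locus Locus_1627 (499.6 RPM). In germination it is the sucrose synthase locus Locus_633 (470.4 RPM). Summed RPKM of the matched transcripts was highest in the UGPase locus Locus_4027, with 282.15 in early shoot and 235.96 in germination. These orders change in early shoot if all transcripts of each locus are summed. The sucrose synthase locus Locus_588 then had the most reads, 6850, and the highest RPKM, 532.68. Locus_5291 followed with an RPKM of 381.52 and Locus_4027 with 329.07. In germination Locus_4027 had 274.93 and Locus_588 had 273.35.

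Synthesis of sucrose was represented by 2 SPS loci, of which Locus_1627 held nearly all reads. Its 6 transcripts of 3452 to 3545 bp, matched to SPS of the bamboo Bambusa oldhamii, had 3936 reads in early shoot and 1517 in germination. The log2 ratio was 0.53 (from 0.44 to 0.61), and the G-fold value 0.43. The RPKM of single transcripts was 21.2 to 26.3 in early shoot and 14.4 to 18.4 in germination. These are transcripts of 1 locus in 1 library per stage, and their range is not the spread of a stage. All 6 transcripts lay on the side of early shoot, with log2 ratios from 0.42 to 0.70, and none of their 15 pairs differed beyond the counting interval. The transcript with most reads, transcript 4, had 716 and 268 reads and a log2 ratio of 0.57 (from 0.37 to 0.78). The other SPS locus, Locus_15308, is a fragment of 187 bp matched to wheat SPS, with 1 read in early shoot and 4 in germination. Its interval, from -8.47 to 0.49, leaves its direction undetermined at this depth. No description names sucrose phosphatase.

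UGPase, which supplies or consumes UDP-glucose on either side of sucrose, was found in Locus_4027 with 9 matched transcripts. They held 2657 reads in early shoot and 1230 in germination, a log2 ratio of 0.26 (from 0.17 to 0.36). The transcripts of the locus lay between -0.33 and 0.38. Transcript 10 (1398 bp) had 560 and 239 reads, an RPKM of 50.8 in early shoot and 38.2 in germination, and the highest log2 ratio of the locus, 0.38 (from 0.16 to 0.60). Transcript 5, of equal length, had 559 and 251 reads and a log2 ratio of 0.30. Transcript 1 (540 bp) had 49 and 34 reads and the lowest value, for which the interval ran from -0.98 to 0.35. None of the 36 pairs of transcripts differed beyond the counting interval. A further transcript of the locus, transcript 2 (1466 bp), is matched to a hypothetical protein of sorghum and had 542 and 256 reads, a log2 ratio of 0.23. With it the locus had a log2 ratio of 0.26 (from 0.17 to 0.35).

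Sucrose synthase was the class with most reads, in 4 loci and 12 matched transcripts. They held 6381 reads in early shoot and 3184 in germination, a log2 ratio of 0.15 (from 0.09 to 0.22). This sum joins loci that differ.
Locus_633 was the only sucrose locus with a G-fold value below 0. Its transcripts are 2177 to 3019 bp long and are matched to sucrose synthase of Bambusa oldhamii. Transcript 1 had 928 reads in early shoot and 607 in germination, an RPKM of 39.6 and 45.6. Transcript 2 had 483 and 328 reads, transcript 3 had 940 and 569, and transcript 4 had 872 and 604. In every case the scaled value was lower in early shoot, with log2 ratios from -0.32 to -0.12, and the interval of transcript 3 reached 0.03. The summed reads, 3223 and 2108, had a log2 ratio of -0.24 (from -0.32 to -0.16), or 0.85-fold. The G-fold value was -0.14. The value was -0.15 when the upper quartile was used to scale the libraries.
Locus_2521, also matched to Bambusa oldhamii, lay on the other side. Its 5 matched transcripts of 2481 to 2611 bp had 544 to 571 reads in early shoot and 185 to 220 in germination. RPKM was 27.2 to 29.2 in early shoot and 15.9 to 19.4 in germination, a range over transcripts of 1 locus and not over samples. The summed reads, 2785 and 965, had a log2 ratio of 0.68 (from 0.57 to 0.79), or 1.60-fold. Its transcript with most reads, transcript 6, had 0.50 (from 0.27 to 0.73). The ratio of Locus_2521 exceeded that of Locus_633 by 0.92 on the log2 scale (from 0.78 to 1.05), a difference that does not depend on the scaling.
As a consequence of both, Locus_2521 held 43.6% of the matched sucrose synthase reads in early shoot (exact interval from 42.4% to 44.9%) and 30.3% in germination (from 28.7% to 31.9%). Locus_633 held 50.5% in early shoot (from 49.3% to 51.7%) and 66.2% in germination (from 64.5% to 67.8%).

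The remaining sucrose synthase loci are larger than their matched transcripts show. In Locus_588, 1 of 11 transcripts is described as sucrose synthase, from barley, with 219 reads in early shoot and 67 in germination and a log2 ratio of 0.86 (from 0.46 to 1.28). In Locus_5291, 2 of 9 are so described, from maize and barley, with 154 and 44 reads together and a log2 ratio of 0.96 (from 0.47 to 1.48). Most other transcripts of both loci, 15 in all, have the same rice protein, Os03g0340500, as their best match, whose description is only this identifier. They occur in no other locus and held 9642 reads in early shoot and 2647 in germination. All transcripts described as sucrose synthase held fewer in early shoot, 6381, and more in germination, 3184.
With all transcripts of the locus, Locus_588 had 6850 and 1979 reads and a log2 ratio of 0.94 (from 0.87 to 1.02). Locus_5291 then had 3180 and 783 reads, a log2 ratio of 1.17 (from 1.06 to 1.29) and, with G-fold 1.04, was called as well. Both therefore kept the direction of their matched transcripts. The transcript of Locus_588 with most reads, transcript 10 (2042 bp), had 1112 and 303 reads, an RPKM of 69.1 in early shoot and 33.1 in germination.
With these transcripts included, the log2 ratio of the 4 sucrose synthase loci was 0.61 (from 0.57 to 0.65), against 0.15 without them. Their order did not change. Locus_5291 was highest, and Locus_588, Locus_2521 and Locus_633 followed. Each of the 6 pairs differed beyond the counting interval, from 0.23 (from 0.10 to 0.37) between Locus_5291 and Locus_588 to 1.41 (from 1.27 to 1.55) between Locus_5291 and Locus_633. By matched transcripts alone, only the 3 pairs with Locus_633 did. Locus_633 held 20.1% of the reads of all transcripts of the 4 loci in early shoot and 36.0% in germination. Locus_2521 held 17.5% of them in early shoot (from 16.9% to 18.1%) and 16.8% in germination (from 15.8% to 17.7%). These intervals overlap, unlike those by matched transcripts.

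**Figure D2:**
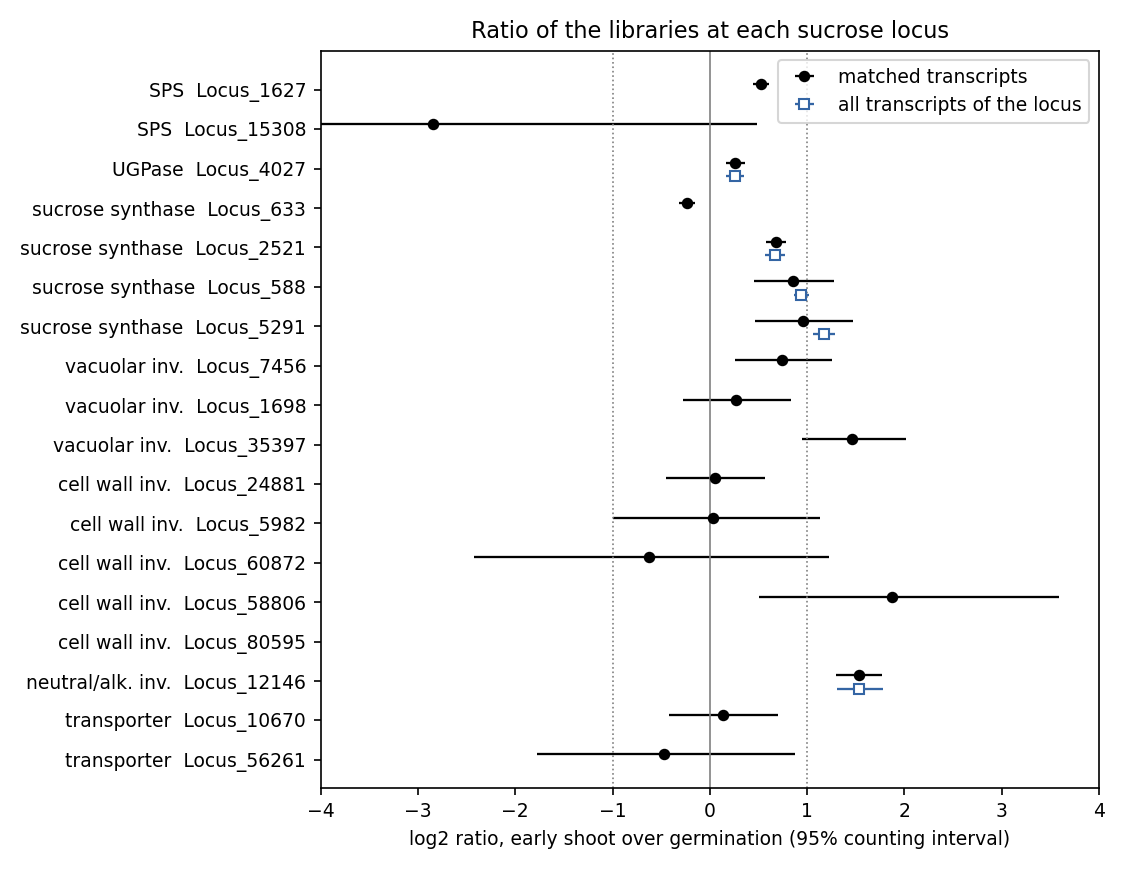
Early shoot over germination log2 ratio at each locus, from matched transcripts (filled) and, where a locus has further transcripts, from all of them (open). Bars are 95% counting intervals, dotted lines mark 1 and -1, the interval of Locus_15308 runs past the axis, and Locus_80595 has too few reads for a ratio. Locus_633 lies below 0 at -0.24, and Locus_12146 has 1.53.

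Neutral/alkaline invertase, a type of invertase that differs in sequence from the acid invertases of the cell wall and vacuole, had the highest group ratio. Its single locus, Locus_12146, is matched to the enzyme of cassava and had 915 reads in early shoot and 176 in germination. The log2 ratio was 1.53 (from 1.30 to 1.77), or 2.89-fold, and the G-fold value 1.26.
The 4 matched transcripts did not share this ratio. Transcript 1 (1633 bp) had 229 reads in early shoot and 30 in germination, with RPKM of 17.8 and 4.10. G-fold was 1.45. Transcript 3 (1295 bp) had 135 and 21 reads, with G-fold 1.07. Transcript 4 (2052 bp) had 255 and 32 reads, with G-fold 1.53. These are the 3 called transcripts.
Transcript 5 (1575 bp), the most abundant, had 296 reads in early shoot and 93 in germination, with RPKM of 23.8 and 13.2. Its log2 ratio was 0.81 (from 0.48 to 1.17) with 1 read added, and its G-fold value, 0.43, was not called. It lay below each of the others, by 1.32 on the log2 scale for transcript 4 (from 0.67 to 2.0), 1.26 for transcript 1 (from 0.60 to 1.96) and 1.01 for transcript 3 (from 0.25 to 1.83). Its share of the reads of the locus was 32.3% in early shoot (from 29.3% to 35.5%) and 52.8% in germination (from 45.2% to 60.4%). With only the most abundant transcript of each locus, the locus was not called and its log2 ratio was 0.82.

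Vacuolar invertase, an acid invertase that splits sucrose stored in the vacuole, was found in 3 loci, all matched to BObetaFRUCT3 of Bambusa oldhamii. Together they had 417 reads in early shoot and 126 in germination, a log2 ratio of 0.88 (from 0.59 to 1.18).
Locus_35397 (638 bp) led with 184 reads in early shoot and 37 in germination, RPKM of 36.6 and 12.9, and a log2 ratio of 1.47 (from 0.95 to 2.02). Its G-fold value was 0.87 and was not called. Locus_7456 had 142 and 47 reads and a log2 ratio of 0.75 (from 0.26 to 1.26). Locus_1698 had 91 and 42 reads, and its ratio of 0.27 had an interval from -0.28 to 0.83.
The ratio of Locus_35397 exceeded that of Locus_1698 by 1.20 on the log2 scale (from 0.42 to 1.98), while Locus_7456 was apart from neither beyond the interval. Within Locus_7456, transcript 2 (542 bp) had 39 reads in early shoot and 5 in germination, against 103 and 42 for transcript 1 (1045 bp). These transcripts differed by 1.67 (from 0.18 to 3.46). As the 3 loci match the same protein and are shorter than the longest transcripts of sucrose synthase and SPS, they may be separate genes or pieces of one, which was not tested.

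Cell wall invertase, which splits sucrose outside the cell as it is unloaded, had few reads. Its 5 loci held 164 reads in early shoot and 76 in germination, or 0.26 on the log2 scale (from -0.14 to 0.67), an interval that holds 0.
The loci match either BObetaFRUCT2 or BObetaFRUCT1, and Locus_58806 was the only locus of BObetaFRUCT1 with a ratio. Those of BObetaFRUCT2 lay near 0 or could not be placed. Locus_24881 had 97 and 52 reads, RPKM of its longer transcript of 17.8 in early shoot and 16.6 in germination, and a log2 ratio of 0.05 (from -0.45 to 0.57). Locus_5982 had 24 and 13 reads and a log2 ratio of 0.04 (from -0.99 to 1.13). Locus_60872 had 7 and 6 reads.
For BObetaFRUCT1, Locus_58806 had 33 reads in early shoot and 5 in germination, a log2 ratio of 1.87 (from 0.51 to 3.59). Its G-fold value was 0.36. Locus_80595, a fragment of 174 bp, had 3 reads in early shoot and 0 in germination, at which no ratio can be given. The ratio of Locus_58806 exceeded that of Locus_24881 by 1.82 (from 0.33 to 3.61), a difference that rests on 5 germination reads.

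Among the invertases, the neutral/alkaline locus exceeded the vacuolar group by 0.65 on the log2 scale (from 0.27 to 1.03) and the cell wall group by 1.27 (from 0.79 to 1.74). The vacuolar group exceeded the cell wall group by 0.62 (from 0.11 to 1.12). Locus_12146 therefore held 61.2% of all invertase reads in early shoot (from 58.6% to 63.6%) and 46.6% in germination (from 41.4% to 51.7%). Its ratio and that of Locus_35397 differed by 0.06 (from -0.54 to 0.64). The lead over the vacuolar group depends on the transcripts used. With only the most abundant matched transcript of each locus, the neutral/alkaline locus had 0.82, the vacuolar group 0.78 and the cell wall group 0.29. In all, 36 pairs of loci within a class of enzyme were compared, and the interval left out 0 in 17.
Set against sucrose synthase, the invertases had a log2 ratio higher by 0.98 (from 0.81 to 1.16) with matched transcripts and by 0.53 (from 0.36 to 0.71) with all transcripts of the loci. Invertases took 19.0% of the reads on both kinds of cleavage enzyme in early shoot (from 18.1% to 19.9%) and 10.6% in germination (from 9.62% to 11.7%). With all transcripts of the loci the shares were 8.55% (from 8.14% to 8.97%) and 6.07% (from 5.49% to 6.69%). These are shares of reads, which also depend on the lengths of the transcripts, so that a share can be compared between the libraries but not between the enzymes. SPS exceeded sucrose synthase by 0.37 (from 0.26 to 0.48) with matched transcripts. With all transcripts the difference was -0.09 (from -0.18 to 0.01), an interval that holds 0.

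**Figure D3:**
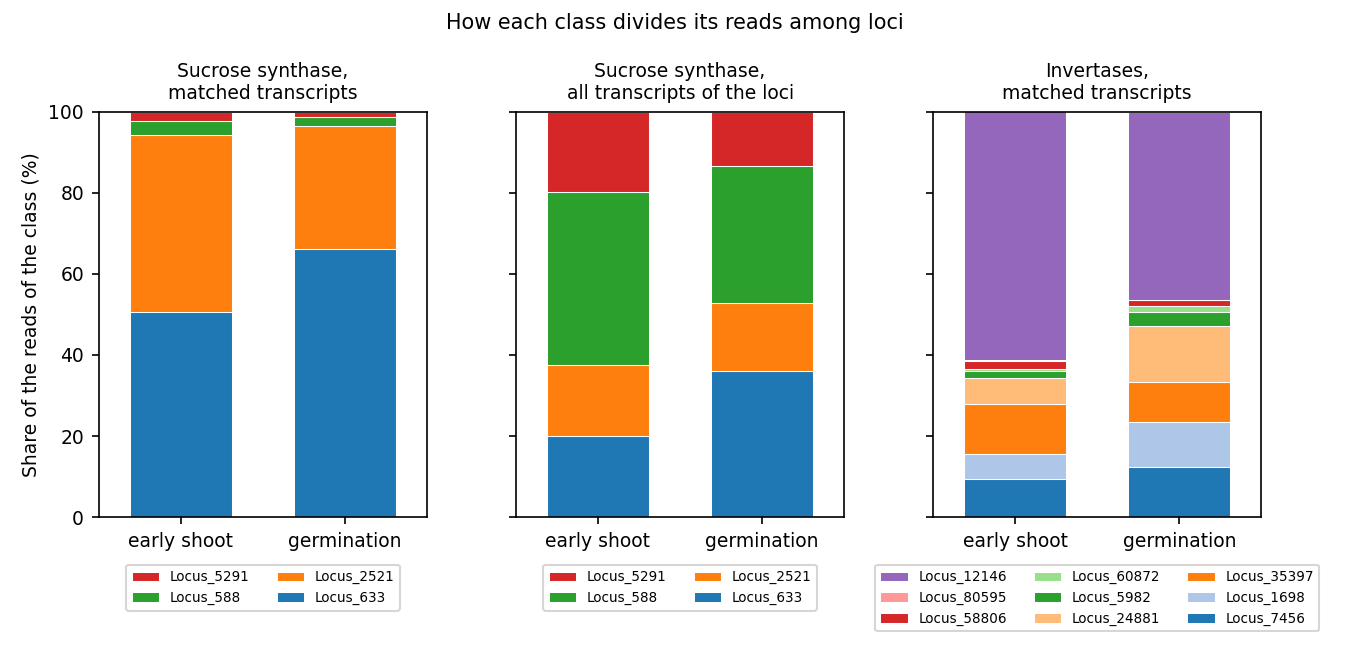
Share of reads held by each locus in early shoot (left bar) and germination (right bar), for sucrose synthase by matched transcripts, sucrose synthase by all transcripts of the loci, and invertases. Locus_633 is the lowest block of the sucrose synthase bars, at 50.5% and 66.2% by matched transcripts, and Locus_12146 is the top block of the invertase bars, at 61.2% and 46.6%.

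**Figure D4:**
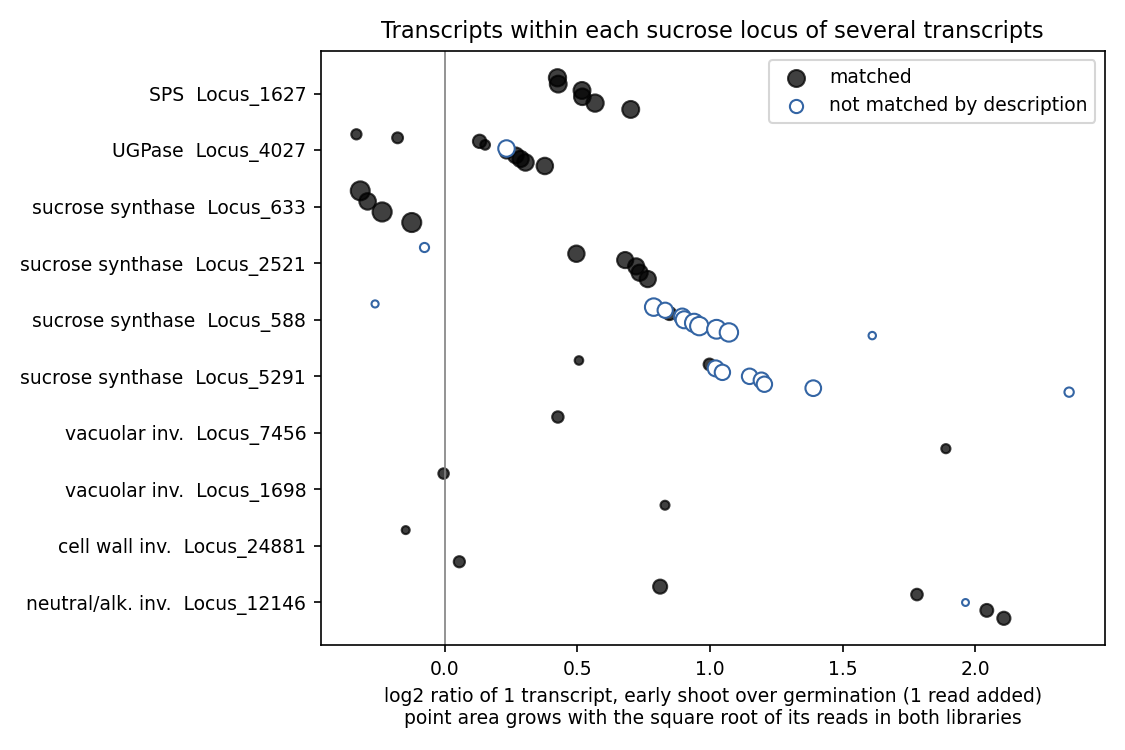
Early shoot over germination log2 ratio, with 1 read added, of every transcript in the sucrose loci that have several, with the point area growing with the reads. Filled points are described as a sucrose enzyme and open points are not. Transcript 5 of Locus_12146 stands at 0.81, apart from the other filled points of its locus. The open point of that locus rests on 6 reads in early shoot and 0 in germination.

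Sucrose transporters, which move sucrose across membranes together with protons, were found in 2 loci of 1 transcript each. Locus_10670, matched to a rice sucrose transporter, had 83 reads in early shoot and 42 in germination, RPKM of 15.4 and 13.7, and a log2 ratio of 0.13 (from -0.42 to 0.71). Locus_56261, matched to the transporter of sugarcane, had 13 and 10 reads and a log2 ratio of -0.47 (from -1.77 to 0.88). A difference was not detectable in either at this depth. The counting interval of both together, from -0.47 to 0.55, leaves out a log2 ratio of 1 in either direction. Most reads of this sum are those of Locus_10670, and the interval of Locus_56261 alone holds -1. Neither interval covers the spread between samples.

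Compared per length, within a library, the sucrose transcripts ranged widely in RPKM. The transcripts of Locus_633 had an RPKM above 96.9% to 98.2% of all transcripts in early shoot and above 97.4% to 98.4% in germination. Transcript 10 of UGPase lay higher in early shoot, above 98.8%, and above 97.9% in germination. Transcript 11 of Locus_588, which is not described as sucrose synthase, lay above 99.2% in early shoot and 97.7% in germination. Those of SPS in Locus_1627 lay above 95.1% to 96.6% in early shoot and above 89.5% to 92.9% in germination. Vacuolar invertase of Locus_35397 lay above 97.9% in early shoot and 87.5% in germination. Transcript 4 of neutral/alkaline invertase lay above 92.2% in early shoot and 40.5% in germination, whereas transcript 5 lay above 96.0% and 87.9%. The sucrose transporter of Locus_10670 lay above 91.9% and 88.6%. The other transporter, Locus_56261, lay above 43.5% in early shoot and 55.7% in germination. The SPS fragment of Locus_15308 lay above 6.88% in early shoot and 54.2% in germination. Cell wall invertase of Locus_60872 lay above 39.2% and 56.4%, and that of Locus_58806 above 78.1% and 25.2%. Locus_80595, also cell wall invertase, lay above 23.5% in early shoot and had no reads in germination. Transcript 2 of vacuolar invertase Locus_7456 lay above 81.9% in early shoot and 24.3% in germination.

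The steps next to sucrose were followed with 7 lists of 21 loci, found by description. They are hexose phosphorylation, hexose phosphate interconversion, trehalose, other sugar transport, UDP-glucose use, SNF1-related kinase and pyrophosphate handling. The descriptions in the list of other sugar transport do not say which sugar is carried. Of the 21 loci, 1 was called in early shoot and 2 in germination, where 1.33% and 4.92% of all loci with reads were called. G-fold values were above 0 in 4 and below 0 in 5. The shares of such values over all loci with reads were not calculated, so nothing is read from these counts.
Hexokinase phosphorylates the glucose that invertase releases, and its locus with most reads, Locus_3733, ran opposite to the invertases. It had 214 reads in early shoot and 542 in germination, a log2 ratio of -2.19 (from -2.42 to -1.96). The other hexokinase locus had 2 and 5 reads, and no description names fructokinase.
Phosphoglucomutase, which links glucose 1-phosphate from UGPase to glucose 6-phosphate, had 1145 reads in early shoot and 353 in germination in Locus_1094, a log2 ratio of 0.85 (from 0.68 to 1.03). A locus with a phosphoglucomutase/phosphomannomutase domain, Locus_10037, was called in early shoot with 280 and 35 reads and a log2 ratio of 2.15 (from 1.64 to 2.70). Glucose-6-phosphate isomerase, which interconverts the phosphates of glucose and fructose, had 1175 and 854 reads and a log2 ratio of -0.39 (from -0.52 to -0.26).
Among sugar transporters the SWEET proteins, which let sugars pass along their gradient, had the most uneven counts. SWEET6b of Locus_8585 had 1 read in early shoot and 67 in germination, a log2 ratio of -6.91 (from -12.24 to -4.39), and was called in germination. The loci matched to SWEET15 had 13 reads in early shoot and 1 in germination, and 10 and 0 reads. The other 5 sugar transporter loci had G-fold values of 0.
Trehalose-6-phosphate synthase makes trehalose 6-phosphate, a signal of sucrose supply known from Arabidopsis. Its locus with most reads, Locus_3046, had 311 and 238 reads and a log2 ratio of -0.46 (from -0.71 to -0.21). The other 3 trehalose loci had 17 or fewer reads in each library and G-fold values of 0. A transcript of SNF1-related kinase, an energy sensor that phosphorylates SPS in spinach, had 312 and 90 reads and a log2 ratio of 0.95 (from 0.60 to 1.30). UDP-glucuronic acid decarboxylase, on the path from UDP-glucose to wall xylan, had 23 and 38 reads and a log2 ratio of -1.57 (from -2.39 to -0.79). Inorganic pyrophosphatase, which removes the pyrophosphate that UGPase uses or makes, had 116 and 56 reads in Locus_732 and a log2 ratio of 0.20 (from -0.27 to 0.69). For Locus_5472, the other pyrophosphatase locus, 22 and 13 reads were counted.

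**Figure D5:**
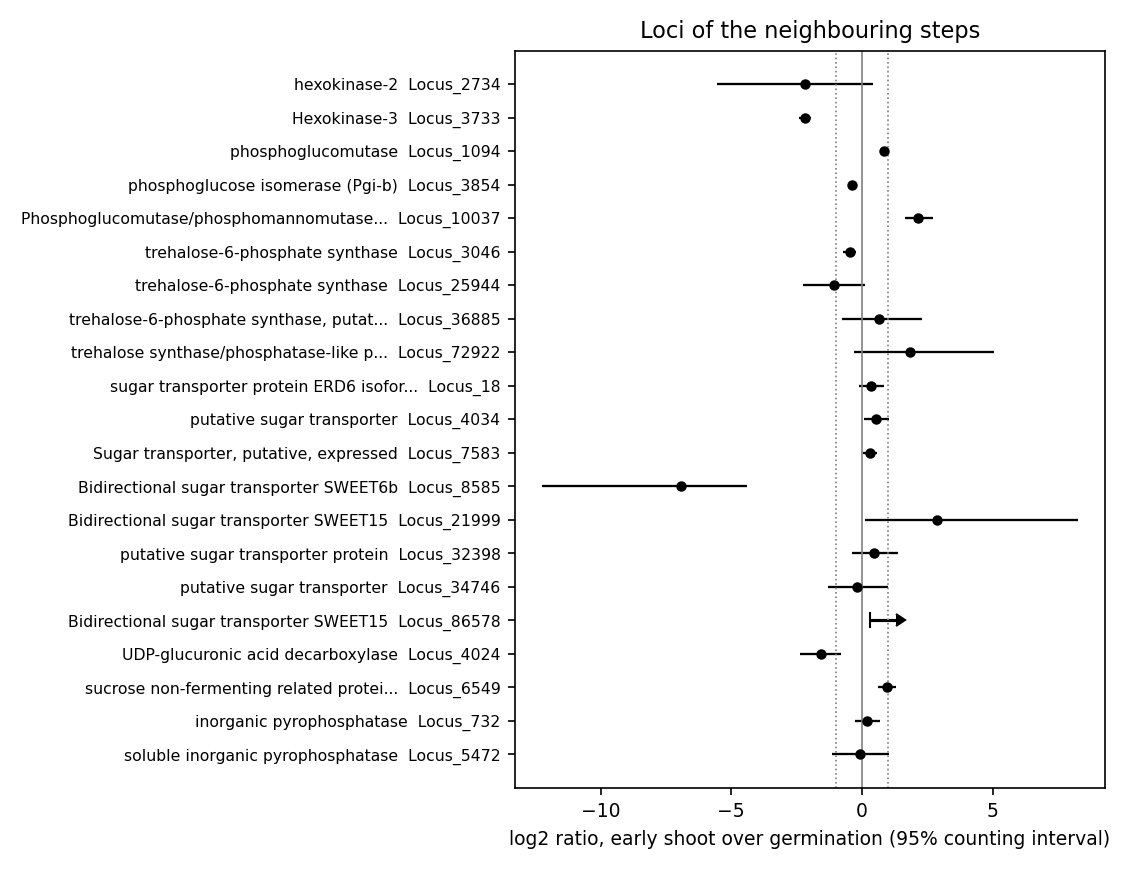
Early shoot over germination log2 ratio with 95% counting interval for the 21 loci of the neighbouring steps, the arrow marking the lower end of an interval where germination had 0 reads. Hexokinase-3 lies at -2.19 and SWEET6b at -6.91, on the side of germination.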

How the data were processed

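The authors deposited, for each library, the unnormalized read count of every assembled transcript, and these counts were used for every ratio. The deposited RPKM, which the authors scaled by transcript length and table total, was recalculated to within 0.0483. It was used for the cutoff and for levels. The submitters' processing notes name TopHat2 2.0.8b and Cufflinks 2.2.1, but the transcript names are those of an assembly. The assembler and counting program are not given in the sources used here.

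Members were found by description, and their reads were summed per locus and enzyme. The members, the enzyme groups and the lists of neighbouring steps were chosen with earlier results of these data known. By rule, all 18 loci are named, and single transcripts are given in loci with at least 100 reads. Which of these transcripts are printed in full, and those without a describing match, were chosen after their values were seen. Differences between ratios have exact conditional 95% intervals. Python 3.11.15 was used with SciPy 1.17.1 for quantiles and intervals, NumPy 2.4.6, pandas 2.3.3 and matplotlib 3.10.9. The G-fold value follows the idea of the program used in the study, which was not run. The calculation was tested on simulated data.

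Alternatives were other scalings (table totals, 1.76; TMM of edgeR 4.0.16 under R 4.3.3, 1.76; upper quartile, 1.7; totals without the 10 most abundant transcripts, 1.76), other sets of transcripts, thresholds, quantiles and cutoffs, and a thinned early shoot library. No replicates exist, so no test was run.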

Additional observations from a re-analysis of the deposited data

How the results depend on the processing

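The other scalings raised every log2 ratio by 0.03 to 0.08 and left the counts of calls as they were. With the upper quartile, sucrose synthase had 0.24, all cleavage enzymes 0.38 and all members 0.43. With all transcripts of the loci these became 0.61, 0.65 and 0.57, and with summed RPKM 0.31, 0.50 and 0.42, where all invertases had 0.95. Without the locus with most reads, SPS had -2.85, from 1 and 4 reads, sucrose synthase 0.71, vacuolar invertase 0.54, transporters -0.47, all invertases 0.68, all cleavage enzymes 0.83 and all members 0.28. With the most abundant matched transcript per locus, neutral/alkaline invertase had 0.82 and all invertases 0.69. In early shoot 1 locus was called. The count was 2 with all transcripts of the loci or a quantile of 0.05, and 4 when the log2 ratio itself was used. It was 0 with the most abundant transcript or a threshold of 2.0. In germination the log2 ratio itself called 1 locus, and the other rules 0. The 3 called transcripts became 6 by the log2 ratio itself, 0 with a threshold of 2.0, and 7 with log2 of RPKM with 0.1 or 1 added. Of 88 values of enzyme groups under an alternative, 69 stayed within the counting interval. In each of the 5 loci under 100 reads that had a ratio, the counting interval was wider than 2.0 on the log2 scale. No paired analysis was possible because each stage has 1 library.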

Other observations

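Of the 45 sucrose transcripts, 35 have their best match in the bamboo Bambusa oldhamii. Of all 49689 transcripts with a protein match, 133 have one in this species. Transcripts of equal length within a sucrose locus were compared by their reads. The 3 UGPase transcripts of 1398 bp had 454 to 560 reads in early shoot and 209 to 251 in germination, with a ratio of variance to mean of 7.08 in early shoot and 2.01 in germination. The 4 SPS transcripts of 3452 bp had ratios of 2.58 and 0.90. The 3 sucrose synthase transcripts of 2525 bp in Locus_2521 had ratios of 0.12 and 1.90. The 2 transcripts of 3019 bp in Locus_633 had ratios of 2.55 and 1.04. If reads fell on them at random the ratio would be 1 on average, and with 2 to 4 transcripts it varies widely around that, so no departure is read from these values.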
